A study of Arabidopsis thaliana with 36 samples.

Results

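The intergenic DNA of the Arabidopsis thaliana plastid genome was examined in 50 bp windows for its recovery with the plastid RNA polymerase. The 154477 positions were tiled, the windows of the second inverted repeat copy were dropped, and a window was kept when none of its bases lay inside an annotated gene span. This left 680 intergenic windows of 2565 in all, beside 1680 windows wholly inside a gene and 205 across a gene edge. The intergenic windows lay in 95 of 107 spacers, which are named here by their left and right gene, as in trnE-trnT. The other 12 spacers held no whole window. Spacers with a window were 55 to 2763 bp long and held a median of 5 windows.

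Chromatin was immunoprecipitated from chloroplasts crosslinked with 4% formaldehyde for 4 h (ptChIP), and recovered DNA and unselected input DNA were sequenced. The leaf table held Col-0 rosette leaves of 14-day-old plants, 5 g per sample, collected either 2 h after lights came on (Day) or following 24 h in the dark (Night). Its labels name RpoB, the beta subunit of the plastid polymerase, as the target. The seedling table held pools of 50 seedlings, 4 days old and grown in continuous light. The wild-type line was Col0, the other lines were sig2-2, chl27 and chlm, and no antibody is named in their labels. Each of the 6 plant groups had 3 ChIP and 3 input libraries. The labels' genotype entry reads wild type for all seedling lines, and the mutated genes lie in the nucleus, so lines could not be checked in these data. Nothing in the labels says that replicates came from separate harvests, and p-values then measure only the spread between these samples.

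Plastid genes are read mainly by a bacterial-type polymerase encoded in the plastid (PEP), of which RpoB is a subunit, and by phage-type polymerases imported from the nucleus (NEP). PEP finds promoters with sigma factors encoded in the nucleus. SIG2, the factor named by the sig2-2 line, is known for the transcription of several plastid tRNA genes, among them trnE. CHL27 and CHLM are enzymes of chlorophyll synthesis. Spacers hold the promoters, leaders and transcript ends, and a spacer is divergent when both neighbouring genes start in it, convergent when both end in it and tandem otherwise. Gene strands were not in the gene table and were taken from the commonly known map of this genome.

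Mean coverage of the plastid genome was 102 to 1039 in the leaf ChIP libraries and 1017 to 1395 in the leaf inputs. It was 1380 to 2893 in the seedling ChIP libraries and 1132 to 3165 in the seedling inputs. The lowest, 102, was Night ChIP replicate 1. Values below are log2 of window coverage, scaled to a genome mean of 100 with 1 added, in ChIP over input, so 0 is the average of the plastid genome in that library. The median window of the genome stood below that average, at -1.54 by Day and -0.76 by Night. Among seedlings it stood at -0.95 in Col0, -0.35 for sig2-2, -0.62 for chl27 and -0.87 for chlm. Differences inside a library do not depend on this zero point, and they are given where possible.

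Pooled over windows, spacers lay above genes in ChIP by Day and in Col0, chl27 and chlm, and the type of neighbouring gene set the spacers apart. Within the ChIP libraries the median intergenic window lay above the median genic window by 0.70 ± 0.15 by Day, 0.27 ± 0.36 by Night, 0.29 ± 0.05 in Col0, 0.18 ± 0.11 in chl27 and 0.39 ± 0.10 in chlm (log2 difference, mean ± SD, n = 3). In sig2-2 the difference was -0.01 ± 0.04. The Night libraries ran from 0.03 to 0.68, and their spread is larger than their mean. The inputs gave the opposite sign in leaves, -0.25 ± 0.11 by Day and -0.19 ± 0.03 by Night, and were near 0 in seedlings, from -0.06 in chlm to -0.00 in sig2-2. Over windows at least 100 bp from any gene the difference was smaller, 0.35 by Day and 0.07 in Col0.

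Spacers with RNA genes on both sides had the highest median of the flank classes. The 102 windows in 16 spacers between tRNA or rRNA genes had a median of 1.45 ± 0.22 by Day, with 1.57, 1.58 and 1.19 in the libraries, and of 1.51 ± 0.06 in Col0. The 294 windows in 31 spacers with 1 RNA gene had -0.32 by Day and -0.43 in Col0. The 284 windows in 48 spacers between protein-coding genes had -1.47 ± 0.49 by Day, with -1.389, -1.030 and -2.003 in the libraries, and -1.10 ± 0.09 in Col0. The difference inside a library between spacers with 2 RNA genes and spacers with none was 2.92 ± 0.29 by Day, 1.88 ± 0.19 by Night, 2.61 ± 0.07 in Col0, 1.98 ± 0.31 in chl27 and 2.47 ± 0.26 in chlm. It was 1.05 ± 0.20 in sig2-2, where the highest library, at 1.25, lay below the lowest Col0 library, at 2.56.

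**Figure D1:**
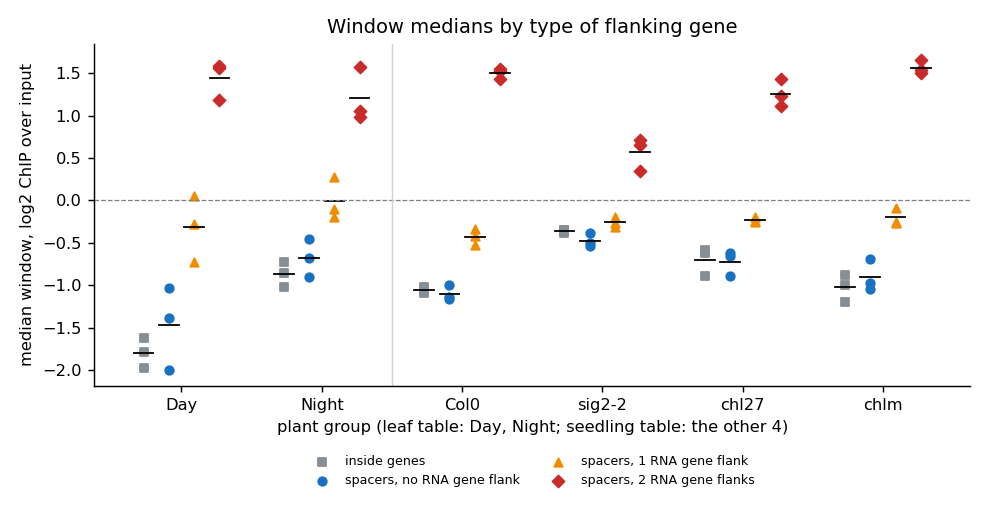
Median log2 ChIP over input of 50 bp windows in each of the 3 ChIP libraries of a plant group (points) with their mean (bar), for windows inside genes and for spacers with 0, 1 or 2 flanking tRNA or rRNA genes. Spacers between RNA genes sit above the others in every library, and the gap is narrowest in sig2-2.

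By limma with Benjamini-Hochberg adjustment over all 2565 windows, 206 of the 680 intergenic windows were higher in ChIP than in input by Day and 346 were lower, where 20% of all windows were higher and 69.7% lower. In the same order, Night had 237 and 284 (22.5% and 65.1% of all windows), Col0 215 and 403 (23% and 71.3%), for sig2-2 166 and 387 (18.7% and 62.5%), for chl27 223 and 377 (23.2% and 70%), and for chlm 243 and 374 (23.9% and 71.4%). The balance of these calls follows the zero point. With each library centred on its median window, 401 intergenic windows were higher by Day and 149 lower, and the counts were 356 and 113 by Night. Among seedlings the centred counts were 353 and 247 for Col0, 259 and 197 for sig2-2, 350 and 204 for chl27, and 390 and 196 for chlm. Centring moved the median window up by 1.64 by Day and by 0.78 by Night, genes included. Counts after centring, here and below, carry no share over all features, so they do not by themselves set spacers apart from genes. Under the genome mean, 86 of the 102 windows between RNA genes were higher by Day and 6 lower, and all 19 windows beside an rRNA gene were higher. Of the 294 windows with 1 RNA gene, 94 were higher and 134 lower, and of the 284 between protein-coding genes 26 were higher and 206 lower.

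Orientation gave smaller differences between spacers than the type of flanking gene did. The 215 windows of 17 divergent spacers had a median of -0.99 by Day, the 95 windows of 15 convergent spacers -0.40 and the 370 windows of 63 tandem spacers -0.50. Divergent windows lay 0.60 ± 0.35 below convergent ones by Day and 0.44 ± 0.03 below in Col0. These differences rested on a single spacer, rps7-trnV, which holds 25.6% of the divergent windows. Without it, a choice made after seeing the data, divergent windows lay above convergent ones by 0.69 ± 0.35 by Day, 0.84 ± 0.26 by Night, 0.31 ± 0.03 for Col0, 0.18 ± 0.11 for sig2-2, 0.31 ± 0.17 for chl27 and 0.45 ± 0.06 for chlm. Of the 160 divergent windows without rps7-trnV 44 had 2 RNA gene flanks, against 14 of the 95 convergent ones. These differences were therefore not separated from flank type. Among spacers between protein-coding genes alone the Day medians were -1.17 for divergent, -1.29 for convergent and -1.59 for tandem pairs. A spacer exceeded both of its flanking genes in every Day ChIP library in 7 of 17 divergent, 1 of 15 convergent and 13 of 63 tandem cases, and in Col0 in 5, 0 and 8 of them. Over all 95 spacers, 21 lay above both genes and 8 below both in every Day library. By Night it was 26 and 9, in Col0 13 and 22, and in sig2-2 11 and 30. In chl27 it was 14 and 17, and in chlm 20 and 11.

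Recovery declined with distance from tRNA genes, while beside protein-coding genes it was low at all distances. Windows whose nearest gene edge was a tRNA 5′ end had a Day median of 1.47 ± 0.13 within 49 bp (28 windows), 1.31 ± 0.37 at 50 to 99 bp, 0.91 ± 0.58 from 100 bp to under 200 bp and -1.85 ± 0.50 from 200 bp on, the last over 55 windows in 10 spacers that include rps7-trnV. Beside tRNA 3′ ends the same bins had 1.25, 1.04, 0.74 and 0.48. Beside protein-coding 5′ ends they had -1.40, -1.02, -0.69 and -1.66, so the third bin was the highest. That last bin, 93 windows in 15 spacers, also includes rps7-trnV, and neither of the last 5′ bins is given without this spacer. Beside protein-coding 3′ ends the bins stayed between -1.47 and -1.29. In Col0 the windows within 49 bp of a tRNA 5′ end had 1.52 ± 0.06, and in sig2-2 they had 0.56 ± 0.10. Neighbouring windows share DNA fragments, so these bins also carry signal from the genes beside them.

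**Figure D2:**
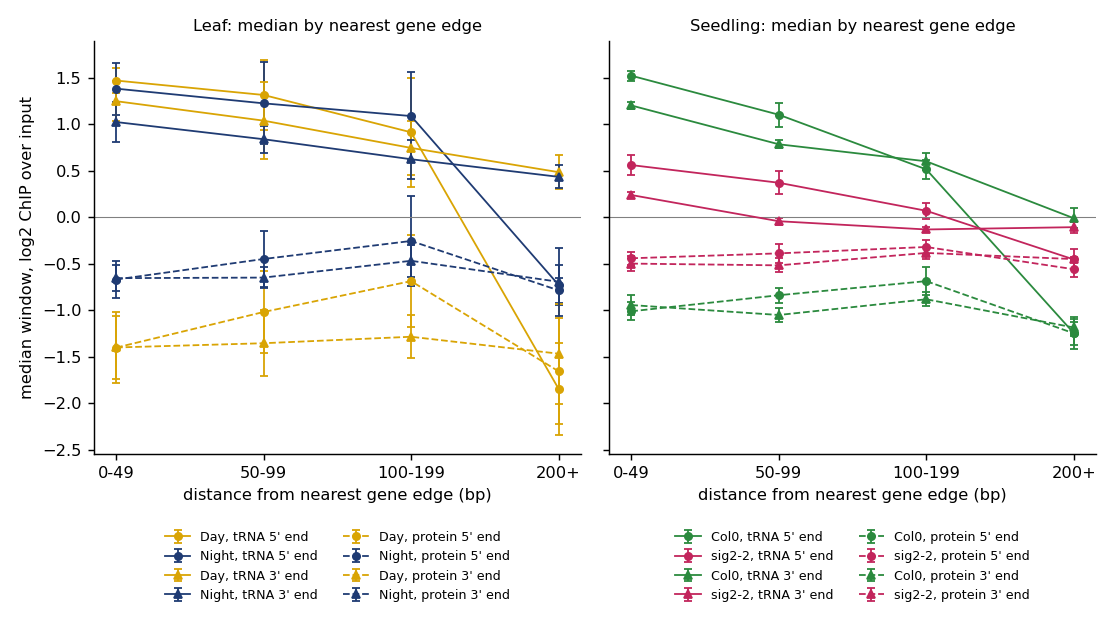
Median log2 ChIP over input of intergenic windows by distance in bp to the nearest gene edge, for tRNA (solid) and protein-coding (dashed) genes and their 5′ (circle) and 3′ (triangle) ends, as mean and SD of 3 libraries. The tRNA lines fall from the first bin to the last, and the protein-coding 5′ lines are highest in the third bin. The last bins of both 5′ ends include rps7-trnV.

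The rRNA operon and tRNA clusters gave the spacers with the highest levels. trnV-rrn16S, positions 100781 to 101011, holds the 5′ end of the 16S ribosomal RNA gene. Its window 61 bp upstream of rrn16S had 2.26, 2.54 and 2.84 by Day, 1.76, 1.68 and 1.58 by Night, 2.76, 3.14 and 3.01 in Col0, and 2.20, 2.03 and 2.29 in sig2-2. The Day and Night libraries did not overlap, and neither did Col0 and sig2-2. As a whole the spacer reached 2.39 ± 0.29 by Day and 2.73 ± 0.20 in Col0, the highest of the 82 spacers with at least 2 windows in both groups.

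trnL-trnF, positions 47491 to 48174, lies between the tRNA genes for leucine and phenylalanine and held the highest window of all 6 plant groups. That window starts 60 bp past trnL and had 3.61, 3.45 and 2.40 by Day, 3.98, 4.65 and 3.70 by Night, 3.23, 3.17 and 3.32 in Col0, and 2.65, 2.35 and 2.65 in sig2-2. All 13 of its windows stayed above input: the lowest had 1.41 ± 0.03 by Day and 0.92 ± 0.03 in sig2-2. The spacer that follows, trnF-ndhJ, is convergent and reached 2.74 ± 0.24 by Day and 3.50 ± 0.20 by Night in a window 153 bp past trnF.

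trnV-trnM, positions 51872 to 52055, is a short divergent spacer in which a valine and a methionine tRNA gene both start, by the commonly known strands. It had 2.15, 2.35 and 2.04 by Day, 2.68, 2.80 and 2.13 by Night, 2.12, 2.37 and 2.40 in Col0, and 0.60, 0.36 and 0.79 in sig2-2. Its windows were level by Day, from 2.15 ± 0.17 to 2.21 ± 0.16. psbA-trnK holds the 5′ end of psbA, which encodes the D1 protein of photosystem II, and had 2.08 ± 0.27 by Day and 1.62 ± 0.05 in Col0. Its highest window by Day, 2.62 ± 0.23, began 6 bp from psbA, and the window next to trnK had 0.65 ± 0.39. Recovery there was highest at the psbA side.

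With the genome average as zero, recovery between protein-coding genes was confined to local maxima in few spacers. By Day 5 of these 48 spacers had at least 1 window higher in ChIP by limma, namely psaA-ycf3, atpB-rbcL, psbE-petL, clpP-psbB and psbN-psbH, and each of these was also found in the other 5 plant groups. Night, with 9 such spacers, added atpH-atpI, petN-psbM, petA-psbJ and rpl33-rps18. Of these, atpH-atpI and petN-psbM were also found in all seedling lines, and rpl33-rps18 in sig2-2 and chlm. Col0 and chl27 had 9 such spacers and sig2-2 and chlm 10, with psbK-psbI and rbcL-accD in each line. In comparison, 25 of 31 spacers with 1 tRNA gene and all 10 between tRNA genes had such a window by Day. Over all 95 spacers it was 46 (48.4%). The following maxima lay upstream of a photosynthesis gene, with distances counted to the annotated gene span, whose length is a multiple of 3 for 71 of 79 protein-coding genes.

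psaA-ycf3, positions 41858 to 42583, holds the 5′ end of psaA, which encodes a core protein of photosystem I. Its highest window began 143 bp from psaA in all 6 plant groups. It had 2.73, 2.82 and 2.47 by Day, 2.06, 2.26 and 2.07 by Night, 2.18, 1.90 and 2.08 in Col0, 2.54, 2.11 and 2.46 in sig2-2. It had 0.90, 1.35 and 1.02 for chl27 and 1.22, 1.48 and 1.51 for chlm. The chl27 and chlm libraries lay below all Col0 and sig2-2 libraries. By Day this window stood 4.80 ± 0.29 above the lowest window of the same spacer.

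atpB-rbcL, positions 54157 to 54957, is divergent: atpB, for the beta subunit of ATP synthase, and rbcL, for the large subunit of Rubisco, both start in it. The maximum was on the rbcL side, 157 bp upstream of rbcL in all 6 groups, with 2.74, 2.85 and 2.29 by Day, 3.17, 3.62 and 2.89 by Night, 2.15, 1.85 and 2.13 in Col0 and 2.71, 2.16 and 2.53 in sig2-2. The lowest Day window, -2.08 ± 0.33, began 44 bp from atpB. The highest and lowest windows thus differed by 4.70 ± 0.13 inside a Day library.

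psbE-petL, 27 windows long, is divergent between psbE, for a cytochrome b559 subunit of photosystem II, and petL of the cytochrome b6f complex. Its Day maximum began 78 bp from psbE, with 2.42, 2.51 and 2.29 by Day, 2.99, 2.88 and 2.46 by Night, 1.14, 1.38 and 1.57 in Col0 and 1.780, 1.497 and 1.946 in sig2-2. Its lowest window, 311 bp from petL, had -2.62 ± 0.70 by Day, and the mean over the whole spacer, 0.12 ± 0.18, did not pass the test. clpP-psbB, where clpP for a protease subunit and psbB for a photosystem II antenna protein both start, had its Day maximum of 1.76 ± 0.26 on the psbB side, 170 bp from that gene. In these spacers a mean over the whole length mixes high and low windows.

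Other listed spacers beside a tRNA gene or a gene known to be read by NEP were described in the same way. rpoB-trnC, positions 26330 to 27372, is divergent between rpoB, which encodes the polymerase subunit itself and is known as a NEP gene, and the cysteine tRNA gene. The window next to rpoB had -3.29 ± 0.17 by Day and the window 172 bp from trnC had 2.18, 2.54 and 1.61. The difference inside a library was 5.41 ± 0.38 by Day, 3.49 ± 0.10 in Col0 and 1.80 ± 0.17 in sig2-2. rbcL-accD, upstream of the NEP gene accD for fatty acid synthesis, had no window higher by Day, and its highest was 0.20 ± 0.22. In Col0, sig2-2, chl27 and chlm it did have a window higher with the same zero point. The mean over the spacer depended on the zero point. After centring, the mean over rbcL-accD was 0.56 by Day and 0.36 in Col0 (limma adjusted p = 6.13e-05 and 3.67e-05). trnT-psbD, 25 windows long before psbD of photosystem II, fell from 1.80 ± 0.43 beside trnT to -0.64 ± 0.41 at 210 bp from psbD by Day.

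**Figure D3:**
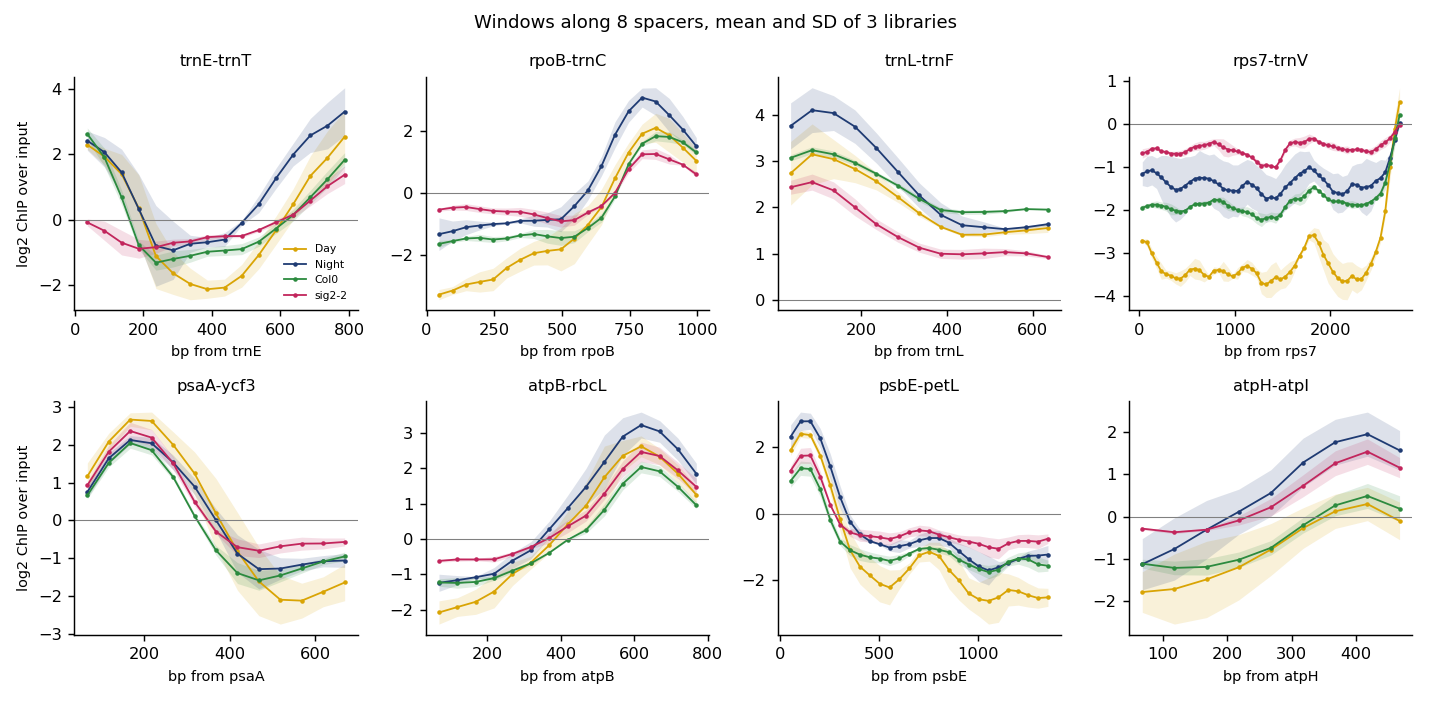
Log2 ChIP over input of each 50 bp window along 8 spacers, by distance in bp from the left gene (line: mean, band: SD of 3 libraries), for Day, Night, Col0 and sig2-2, with a separate vertical scale for each spacer. Maxima stand on the trnC, rbcL, psaA and psbE sides, and the trnE side of trnE-trnT is near 0 in sig2-2 only among these 4 groups.

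The 3 lowest spacers by Day and in Col0 were ndhB-rps7, in the inverted repeat, rps2-rpoC2 and rps12-clpP, each beside a gene for a ribosomal protein. ndhB-rps7 had -3.75, -3.56 and -3.74 by Day, -1.22, -1.94 and -1.09 by Night, -2.18, -2.08 and -2.02 in Col0 and -0.80, -0.64 and -0.73 in sig2-2. rps2-rpoC2 had -3.34 and rps12-clpP -3.05 by Day. The longest spacer, rps7-trnV with 55 windows, had -2.67 ± 0.08 by Day and -1.71 ± 0.04 in Col0, and its highest window by Day, 0.51 ± 0.33, was the one beside trnV. The gene table gives rps12 only a short span, so downstream exons of this split gene fall inside rps7-trnV and count as intergenic there. The 128 intergenic windows of the inverted repeat had a Day median of -2.47, or -2.73 for the 109 of them away from rRNA genes, against -0.44 for the 552 single-copy windows. Of both the 128 and the 109 windows, 55 lie in rps7-trnV, and the medians are not given without it.

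A list of 21 spacers, each holding the 5′ end of a named gene of PEP, NEP or SIG2 interest, gave 13 higher and 4 lower in ChIP by Day, where 35.6% of the 208 spacers and genes tested were higher and 53.4% lower (limma, adjusted over these 208). Its median was 0.78, against -0.53 over all 208. In Col0 12 were higher and 5 lower (38.5% and 53.8% of all), with a median of 0.23 against -0.43. The 4 lower by Day were cemA-petA, ndhF-rpl32, ndhH-rps15 and rps7-trnV. Values in the list by Day ran from -2.67 for rps7-trnV to 2.39 for trnV-rrn16S. The list was chosen with earlier results of these data known, and most of its spacers have a tRNA or rRNA flank. Its comparison with all 208 features is therefore descriptive only. Of all 95 spacers, 37 were higher and 44 lower by Day, and 39 and 49 in Col0. Night gave 43 and 36 (39.4% and 46.2% of all features), sig2-2 32 and 48 (32.7% and 51%), chl27 40 and 47 (38.5% and 51.9%) and chlm 42 and 46 (38.9% and 52.9%).

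From Day to Night the 3 lowest spacers rose and those of the rRNA operon fell. By limma 37 of 95 spacers rose and 10 fell, where 48.6% of all spacers and genes rose and 11.5% fell, 60.1% in all. The median feature moved by 0.53, and with libraries centred on their median the spacer counts were 20 risen and 20 fallen. ndhB-rps7 rose by 2.27 (SE 0.27, adjusted p = 1.56e-05), rps2-rpoC2 by 1.94 and rps12-clpP by 1.74. These 3 were the lowest by Day, and their comparison with the same Day libraries favours a rise. rrn16S-trnI fell by 1.08 (SE 0.155, adjusted p = 4.26e-05) from 2.01, 1.80 and 2.21 by Day to 0.95, 0.81 and 1.03 by Night. The next 2 falls, ArthCr091-trnR at -1.03 and trnA-rrn23S at -0.87, are also beside rRNA genes. All 6 spacers with an rRNA flank fell, and these 6 directions and those of the 3 named rises held after centring.

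The highest and lowest Day windows of a spacer lay closer by Night in some spacers, with 4.80 ± 0.29 against 3.30 ± 0.08 in psaA-ycf3 and 4.23 ± 0.51 against 1.75 ± 0.53 in rps7-trnV. They lay farther apart in others, with 2.44 ± 0.15 against 3.27 ± 0.35 in trnT-psbD and 2.08 ± 0.12 against 3.07 ± 0.61 in atpH-atpI. These windows were picked as extremes in the same Day libraries, which favours a narrowing by Night. The high spacer trnL-trnF rose from 2.17 to 2.83 (limma adjusted p = 0.00847), and by 0.30 after centring, not past the threshold.

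No spacer between protein-coding genes fell at Night in the limma fit, and 29 of 48 rose, while after centring 18 rose and 2 fell. Of windows, 306 intergenic ones rose and 42 fell (61.8% and 9.12% of all windows, 70.9% in all), and after centring 102 rose and 197 fell. Without the libraries numbered 1, which include the shallowest one, 30.5% of spacers were called in place of 49.5%. atpH-atpI, where atpH for a subunit of ATP synthase starts, was named after its values were seen. Its highest window began 70 bp from atpI and had 0.49, 0.57 and -0.15 by Day and 1.92, 2.49 and 1.45 by Night, without overlap. That window changed by 1.65 (SE 0.30, adjusted p = 1.67e-04), and by 0.79 after centring. The spacer mean changed by 1.51 (SE 0.33, adjusted p = 0.0011). rpoB-trnC also rose, by 1.06 (SE 0.25, adjusted p = 0.00209).

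At the photosynthesis spacers the size of the Night change, and at rbcL and psbE its sign, depended on the zero point. The psaA window fell by 0.54 (SE 0.16, limma adjusted p = 0.00752), and by 1.40 after centring. The rbcL window rose by 0.60 (SE 0.24, adjusted p = 0.0348) and turned to -0.25 after centring, and the psbE window went from 0.37, not past the threshold, to -0.48, also not past it. The window next to psbA differed by -0.13, which did not pass, and by -0.99 after centring, which did (limma adjusted p = 0.00595). The psbB-side maximum of clpP-psbB likewise went from -0.45, not past the threshold, to -1.31, past it. The psbE, psbA and clpP-psbB windows were picked as the highest by Day and compared with the same Day libraries, which favours a fall. In the list of 21 spacers 6 rose and 1, trnV-rrn16S, fell, with a median change of 0.32 against 0.53 over all features.

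In sig2-2 the spacers beside tRNA genes lost recovery relative to Col0, and those between protein-coding genes rose. By limma 44 of 95 spacers rose and 30 fell, where 50% of all spacers and genes rose and 32.2% fell, 82.2% in all, and 40 rose and 39 fell after centring. Of 22 spacers holding a tRNA 5′ end and no rRNA flank 13 fell and 2 rose, and of 19 holding only tRNA 3′ ends 11 fell and 2 rose. All 6 with an rRNA flank fell. Of 48 between protein-coding genes 40 rose and none fell. After centring, the counts between protein-coding genes were 36 risen and 1 fallen. Of windows, 376 intergenic ones rose and 160 fell (69.2% and 18.8% of all, together 88%), and after centring 136 rose and 288 fell.

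The 3 largest falls of a spacer were at trnfM-rps14, trnV-trnM and trnD-trnY. trnfM-rps14, beside the initiator methionine tRNA gene, went from 2.00, 2.22 and 2.27 in Col0 to 0.28, 0.30 and 0.49 in sig2-2, a change of -1.81 (SE 0.11, limma adjusted p = 4.47e-16). trnV-trnM changed by -1.71 (SE 0.13, adjusted p = 1.09e-13). trnD-trnY, beside the tRNA genes for aspartate and tyrosine, went from 1.21, 1.12 and 1.37 to -0.49, -0.48 and -0.35, below the genome average, a change of -1.68 (SE 0.11, adjusted p = 1.56e-15). In all 3 the libraries of the lines did not overlap.

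A local loss stood inside trnE-trnT, positions 30539 to 31368, where the glutamate and threonine tRNA genes start on either side. The window 12 bp from trnE, whose tRNA also serves in the synthesis of chlorophyll and haem, had 2.42, 2.66 and 2.78 in Col0 and -0.13, -0.16 and 0.04 in sig2-2. It fell by 2.70 (SE 0.14, limma adjusted p = 3e-18). The window 18 bp from trnT had 1.88, 1.59 and 2.02 in Col0 and 1.57, 1.06 and 1.48 in sig2-2, a difference of -0.46 (SE 0.25) that did not pass the test with the genome mean as zero and was -1.02, past the limma threshold (adjusted p = 0.0111), after centring. The trnE window was -3.27 after centring. Inside a library the trnE side stood 0.79 ± 0.27 above the trnT side in Col0 and 1.46 ± 0.24 below it in sig2-2, without overlap, and in chl27 and chlm it stood 0.79 ± 0.60 and 0.23 ± 0.23 above it. Averaged over the spacer the fall was 0.66 (SE 0.12).

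Windows beside other tRNA genes also fell in sig2-2. In ndhC-trnV, named after its values were seen, the highest Col0 window fell by 1.57 (SE 0.14, limma adjusted p = 1.13e-11). The window 13 bp from trnQ in trnQ-psbK went from 1.81, 2.05 and 1.96 in Col0 to 0.81, 0.63 and 1.09, a fall of 1.10 (SE 0.13, limma adjusted p = 2.09e-08). The rpoB-trnC maximum fell by 0.58 (SE 0.15) and that of trnL-trnF by 0.69 (SE 0.22). In trnP-psaJ, between the proline tRNA gene and psaJ of photosystem I, the highest Col0 window fell by 0.33 (adjusted p = 0.022), while the mean over the spacer differed by -0.12 (SE 0.12), which did not pass. Windows picked as the highest in Col0, as in ndhC-trnV and trnP-psaJ, are compared with the same Col0 libraries, which favours a fall.

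The maxima upstream of psaA and rbcL lay in the same windows in sig2-2 as in Col0. The psaA window differed from Col0 by 0.32 (SE 0.16) and the rbcL window by 0.43 (SE 0.21), neither past the limma threshold, and both had a negative sign after centring. The psbE window rose by 0.37 (SE 0.14, adjusted p = 0.0128), and was -0.19 after centring. At psbA-trnK the spacer fell by 0.55 (SE 0.10, adjusted p = 6.78e-06). At atpH-atpI the highest window went from 0.24, 0.42 and 0.81 in Col0 to 1.65, 1.20 and 1.77 in sig2-2, a rise of 1.05 (SE 0.17, adjusted p = 9.14e-07) that was 0.48 after centring. The largest rises of a spacer were ndhB-rps7 at 1.37, rpoC2-rpoC1 at 1.21 and rps2-rpoC2 at 1.17, and all 3 held after centring. In the list of 21 spacers 8 rose and 6 fell.

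**Figure D4:**
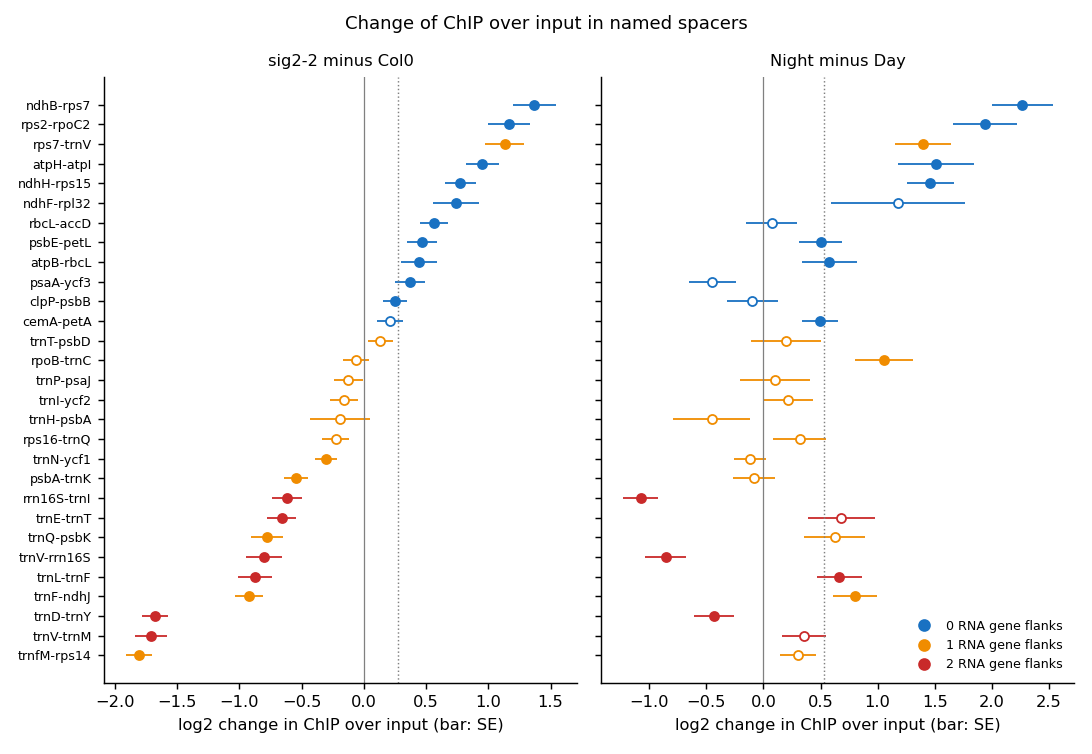
Log2 change of ChIP over input with its SE in named spacers, for sig2-2 minus Col0 and Night minus Day, coloured by the number of flanking RNA genes. Filled points passed the limma test, and the dotted line is the median change of all 208 spacers and genes. For sig2-2 trnfM-rps14, at -1.81, is the lowest and ndhB-rps7, at 1.37, the highest, and at Night rrn16S-trnI, at -1.08, is the lowest.

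In chl27 the pattern of Col0 was kept with a smaller range, and this result depended on the replicates. The comparisons of sig2-2, chl27 and chlm share the Col0 libraries. By limma 29 of 95 spacers rose and 11 fell relative to Col0, where 34.1% and 12.5% of all spacers and genes did, 46.6% in all. The rises were led by rps12-clpP at 0.74, ndhB-rps7 at 0.73 and rps2-rpoC2 at 0.72 (adjusted p = 0.00395 each). The falls were led by rrn16S-trnI at -0.54, trnA-rrn23S at -0.51 and trnV-rrn16S at -0.49. All 6 spacers with an rRNA flank fell, and of the 22 holding a tRNA 5′ end 2 fell and 1 rose.

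Without the libraries numbered 2, only 1.05% of spacers were called for chl27, against 42.1% with all, and without those numbered 3 it was 20%. Of windows, 263 intergenic ones rose and 42 fell (50.3% and 7.88% of all, 58.1% together), and after centring 105 rose and 111 fell. At the psaA maximum chl27 had 0.90, 1.35 and 1.02 against 2.18, 1.90 and 2.08 in Col0, a fall of 0.96 (SE 0.16, limma adjusted p = 8.3e-04) that was -1.25 after centring. The window next to trnE had 2.33, 2.41 and 2.26, a difference of -0.29 (SE 0.14) that did not pass, and -0.57 after centring, which did (limma adjusted p = 0.0176).

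For chlm none of the 680 windows and none of the 95 spacers passed the limma test against Col0, as none of all windows did (0%). Some windows and spacers did pass with a replicate block, as given in the last section. At an unadjusted p under 0.05 there were 115 of the 680 windows, and 297 of all 2565. The psaA maximum had 1.22, 1.48 and 1.51, below all 3 Col0 libraries, with a difference of -0.65 (SE 0.16, adjusted p = 0.0692). After centring it was -0.67 and passed (limma adjusted p = 0.0434), and 4 intergenic windows rose and 2 fell in all. The median intergenic change was 0.12.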

How the data were processed

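Reads were trimmed with Trim Galore 0.4.1, aligned with Bowtie2 and turned into coverage with bedtools 2.25.0 on TAIR10, per the submitters' processing notes. The deposited values, of a kind other than the usual expression units, are whole-number coverage per position with no scaling, in 12 leaf and 24 seedling libraries. Read placement in the inverted repeat and duplicate handling are not given in the sources used here. Read depth cannot be derived from these values, so counting intervals and count models were not used.

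Gene spans came from the RefSeq table of TAIR10.1 (129 plastid entries, 113 spans after merging repeat copies). Repeat windows are means of both copies. A missing 5S rRNA entry was mirrored from the second copy. Window coverage was divided by the library mean, multiplied by 100, 1 was added and log2 taken. limma 3.58.1 in R 4.3.3 (group means, variance trend) was fitted to each table, with Benjamini-Hochberg adjustment over all windows, or over 208 spacers and genes, at 0.05. The tables were never fitted together. On simulated data with log2 changes of 1 the fit was checked first. A single library's value is its ChIP minus the mean of its group's inputs. Python 3.11.15, numpy 2.4.6, pandas 2.3.3 and matplotlib 3.10.9 were used.

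Named spacers are the 3 highest and 3 lowest past the threshold in each comparison among those with at least 2 windows, plus a list of 21, and named windows the 3 highest and 3 lowest per group. The members and lists were chosen with earlier results of these data known. Alternatives were pseudocounts of 0.1 and 10, other scalings, an input filter, 1 repeat copy, other windows, left-out replicates and a replicate block. No motif search was run.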

Additional observations from a re-analysis of the deposited data

Results flagged for a closer look

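The change in ChIP over input between plant groups was tested with limma as an interaction of library kind and plant group. Between Night and Day 348 intergenic windows and 47 spacers differed, the extremes being ndhB-rps7 at 2.27 and rrn16S-trnI at -1.08. These are 51.2% of the windows and 49.5% of the spacers, below the 70.9% of all windows and 60.1% of all spacers and genes. Between sig2-2 and Col0 536 intergenic windows and 74 spacers differed, the extremes being ndhB-rps7 at 1.37 and trnfM-rps14 at -1.81. These are 78.8% and 77.9%, below the 88% and 82.2% over all features. Between chl27 and Col0 305 intergenic windows and 40 spacers differed, the extremes being rps12-clpP at 0.74 and rrn16S-trnI at -0.54. These are 44.9% and 42.1%, below the 58.1% and 46.6% over all features. The last 2 comparisons share the Col0 libraries. With 3 libraries a group, no test for a single outlying library was made.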

How the results depend on the processing

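Of values for named spacers, 1475 kept direction and side of the threshold, 55 lost and 46 gained the threshold, and 37 turned sign; the causes were not tested. Same-numbered libraries did not pair throughout (r from -0.217 to 0.773, 23 of 30 pairs over 0.1, 22 best with their own number). The sig2-2 and Col0 ChIP libraries did (0.557, 0.437 and 0.603, each best with its own number), while Col0 ChIP and input did not (0.111, -0.083 and 0.390). With a replicate block 60.3% of intergenic windows were called for Night against Day, 81.6% for sig2-2, 50% for chl27 and 5.29% for chlm, and 3.16% of spacers for chlm. For chlm, windows called were 0.882% after centring and 0.441% with scaling outside the repeats. Leaving out one replicate gave 0.588% to 50.7% of windows and 1.05% to 52.6% of spacers for chl27 (main 44.9% and 42.1%), 0% to 3.24% of windows and 0% to 2.11% of spacers for chlm, and 30.5% to 51.6% of spacers for Night.

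At least 100 bp from a gene, intergenic minus genic was 0.3459 by Day, 0.0713 in Col0, -0.0676 for sig2-2, 0.0314 for chl27 and 0.1784 for chlm. In sig2-2 it was 0.0109 with the input filter and -0.0331 to 0.0072 with a replicate left out. Divergent minus convergent was, with the input filter, -1.1804 by Day, -0.5036 by Night, -0.4889 in Col0, -0.3576 in chl27 and -0.4465 in chlm. At least 100 bp from a gene it was -0.98 by Day, -0.5086 by Night, -0.1841 in sig2-2 and -0.2648 in chl27. With 100 bp windows it was -0.307 by Night and -0.2581 in chl27, and with a pseudocount of 10 -0.3799 in Col0 and -0.2879 in chl27. With a replicate left out it ranged from -0.492 to -0.4212 in Col0, -0.3304 to -0.274 in chl27 and -0.423 to -0.2243 in chlm. Without rps7-trnV it turned to 0.6892 by Day, 0.8361 by Night, 0.3118 in Col0, 0.1775 for sig2-2, 0.3095 for chl27 and 0.4517 for chlm.

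Turned in sign after centring and with scaling outside the repeats, in that order, were trnT-psbD in Col0 (0.3099, 0.1294), rbcL-accD by Day (0.5555, 0.2458) and in Col0 (0.3589, 0.1783), and the Night changes of trnT-psbD (-0.1638, -0.2396), trnP-psaJ (-0.2646, -0.3414), rbcL-accD (-0.2914, -0.3659), trnI-ycf2 (-0.1497, -0.2279), trnV-trnM (-0.0072, -0.0861) and rps16-trnQ (-0.0446, -0.12). The sig2-2 change of trnT-psbD turned to -0.0395 after centring. At least 100 bp from a gene, psbE-petL turned to -0.3052 by Day, trnE-trnT to -0.3237 by Day and -0.4556 in Col0, and rpoB-trnC to -0.0021, rbcL-accD to 0.0108, rps16-trnQ to -0.2161 and trnH-psbA to -0.2452 in Col0. The sig2-2 changes there turned to 0.0163 for rpoB-trnC, 0.0683 for trnE-trnT, 0.0612 for rps16-trnQ, 0.2646 for trnH-psbA and 0.0505 for petN-psbM. With a replicate left out, Night changes ranged from -0.1465 to 0.0015 for psbA-trnK, -0.0596 to 0.2875 for trnP-psaJ, -0.0579 to 0.1546 for rbcL-accD and -0.0436 to 0.498 for trnI-ycf2. So did rbcL-accD in Col0, from -0.0999 to 0.073, and the sig2-2 change of petN-psbM, from -0.0646 to 0.0617. The planned motif search was not run, as no sequence was used. Depth limits could not be computed from coverage without read numbers.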
